A study of Homo sapiens with 36 samples.

Results

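The metallothioneins of the prostate cancer (PCa) cells were examined: MT1A, MT1E, MT1F, MT1G, MT1H, MT1M, MT1X and MT2A, 8 genes of the 27852 with a symbol in the deposited table. They were taken by symbol, and the counts of all transcripts of a gene were summed. All 8 were in the table. A minimum of 100 counts in at least 1 library was reached by 6 of them and missed by MT1H and MT1M, which are given as levels only. MT1A, MT1E and MT1G reached it through the cell lines in which they were high and not through the others. A difference between lines was thus built into their passing. The same held for MT1F among the libraries with RANKL, where DU145 alone reached the minimum.

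Metallothioneins are small proteins rich in cysteine that bind zinc, copper and cadmium through the sulfur of their cysteines. Their genes are switched on by metals through the zinc-sensing transcription factor MTF1, which binds metal response elements in their promoters, and also by glucocorticoids, oxidants and other stress. The normal prostate is known for storing much zinc, and prostate cancer cells for storing less.

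RNA was sequenced from PCa cells of 4 established lines at day 5 of culture, to find genes that respond to bone cells. C4-2 and its derivative C4-2B are labelled osteoblastic (bone-forming, BPCa), and DU145 and 22Rv1 osteolytic (bone-resorbing, LPCa). Each line gave 3 libraries from mono-culture and 2 from co-culture with MG63, as well as 2 from mono-culture and 2 from RAW264.7 co-culture that both received RANKL at 50 ng/mL, 36 libraries in 16 groups. The partner cells grew in a joined well behind a filter (NICO-1 chamber), and the RNA came from the PCa side. MG63, an osteosarcoma line of human origin, stands in for osteoblasts (OBs), so that any MG63 RNA would be counted on the same human genes. RAW264.7 is a mouse monocytic line that forms osteoclasts (OCs) when given RANKL, the osteoclast-inducing cytokine, which was recombinant mouse protein here and was also added to its mono-cultures. C4-2 and C4-2B share their origin, each line stands for 1 tumour, and the sample labels do not say whether the libraries of a group came from separate cultures, so p-values measure only the spread between these samples, which may be technical.

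The 8 genes lie together on chromosome 16 (GRCh38, GENCODE 29), within 76.0 kb from 56608199 to 56684196. MT2A is first at 56608199 to 56609497, followed by MT1E at 56625475 to 56627112, MT1M at 56632233 to 56633986 and MT1A at 56638666 to 56640087. MT1F at 56657694 to 56660698, MT1G at 56666731 to 56668065, MT1H at 56669814 to 56671129 and MT1X at 56682424 to 56684196 complete the series. MT1G is the only member on the minus strand. The coding sequences show how alike the genes are, which bears on how reads can be told apart, and they are given for 4 members that were high in at least 1 line, from GENCODE 29 with cysteine codons in capitals.

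MT2A: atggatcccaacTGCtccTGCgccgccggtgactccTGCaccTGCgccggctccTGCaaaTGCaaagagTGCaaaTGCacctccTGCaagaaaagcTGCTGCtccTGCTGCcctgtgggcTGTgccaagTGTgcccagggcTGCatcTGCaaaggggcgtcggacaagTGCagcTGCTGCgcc

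MT1X: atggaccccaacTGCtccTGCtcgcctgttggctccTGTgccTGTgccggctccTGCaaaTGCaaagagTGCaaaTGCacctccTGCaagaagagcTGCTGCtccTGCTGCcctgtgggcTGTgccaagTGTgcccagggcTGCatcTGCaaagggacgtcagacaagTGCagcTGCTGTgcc

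MT1E: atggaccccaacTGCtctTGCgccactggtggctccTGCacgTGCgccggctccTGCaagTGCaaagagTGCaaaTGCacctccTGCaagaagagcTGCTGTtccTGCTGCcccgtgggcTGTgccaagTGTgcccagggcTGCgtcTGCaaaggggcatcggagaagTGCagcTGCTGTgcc

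MT1G: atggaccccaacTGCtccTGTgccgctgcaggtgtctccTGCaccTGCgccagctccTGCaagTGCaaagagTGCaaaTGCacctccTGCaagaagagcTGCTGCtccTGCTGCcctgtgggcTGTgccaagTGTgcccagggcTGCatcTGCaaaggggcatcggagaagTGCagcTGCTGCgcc

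Each of these held 20 cysteine codons among 61, or 62 in MT1G, as did MT1A, MT1F, MT1H and MT1M. MT2A and MT1X were identical at 169 of 183 aligned bases (92.35%), and the pairs of the 8 members ranged from 88.52% (MT1X and MT1F) to 94.54% (MT1E and MT1A). Over whole transcripts, 31-base stretches found in no other gene made up 92.8% of MT2A, 94.7% of MT1X and 96.8% of MT1F. The share was 84.4% in MT1E, 81.1% in MT1A, 76.7% in MT1G, 76.2% in MT1M and 72.3% in MT1H. MT1G and MT1H were each other's closest partner, so that the low MT1H counts in cells with much MT1G are uncertain.

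Promoter sequences were at hand for MT2A, MT1H and MT1X. They are printed because the metal response element is the feature the family is known for. Each is the 250 bases before the RefSeq start (GRCh38.p14, plus strand), with capitals for the element's core, TGCACNC or TGCGCNC on either strand.

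MT2A, chr16:56608334-56608583: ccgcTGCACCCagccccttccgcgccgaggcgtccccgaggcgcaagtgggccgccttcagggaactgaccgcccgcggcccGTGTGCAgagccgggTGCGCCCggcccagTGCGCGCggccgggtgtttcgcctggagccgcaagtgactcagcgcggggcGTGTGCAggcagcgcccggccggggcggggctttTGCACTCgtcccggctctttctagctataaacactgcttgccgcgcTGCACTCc

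MT1H, chr16:56669564-56669813: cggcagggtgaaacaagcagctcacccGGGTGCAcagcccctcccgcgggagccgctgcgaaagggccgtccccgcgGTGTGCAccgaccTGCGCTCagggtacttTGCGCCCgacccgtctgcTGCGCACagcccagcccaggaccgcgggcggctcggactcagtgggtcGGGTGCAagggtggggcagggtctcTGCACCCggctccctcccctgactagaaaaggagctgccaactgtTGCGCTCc

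MT1X, chr16:56682220-56682469: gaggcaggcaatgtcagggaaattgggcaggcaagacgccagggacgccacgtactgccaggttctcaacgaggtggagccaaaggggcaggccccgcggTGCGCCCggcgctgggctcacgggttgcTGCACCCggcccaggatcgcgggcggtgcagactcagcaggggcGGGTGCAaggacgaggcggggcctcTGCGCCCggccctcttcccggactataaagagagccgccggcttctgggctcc

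MT2A held 7 cores, MT1H 8 and MT1X 4. At least 1 core was found in 24.8% of 35116 promoters of this length, and as many as in MT2A, MT1H and MT1X in 0.0313%, 0.0171% and 0.370%. The TATA box letters TATAAA were found once in MT2A and MT1X and not in MT1H, against 10.7% of promoters. A match is a run of letters and no measurement of binding.

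Library totals were 23932472 to 36719047 counts for mono-culture in the absence of RANKL, and the other 24 libraries held 9593426 to 15418211, so every comparison with mono-cultures without RANKL also compares deeper with shallower libraries. Levels are given as CPM, counts scaled to the library total, where counts are the deposited values, which appear to be scaled to transcript length already. The limit of detection was taken as 3 counts. This equals 0.0817 to 0.125 CPM in mono-cultures without RANKL and 0.195 to 0.313 CPM in the others. The lowest nonzero values depended on the gene and were 4.12 to 4.35 counts for MT1A. For short members the smallest nonzero value can thus pass this limit. The prostate marker KLK3 reached 4759 CPM in C4-2, while in DU145 it stayed at or under 8.62 CPM. The keratins KRT8 and KRT18, which mark epithelium more widely, were highest in DU145, at up to 1004 and 851 CPM. Of 8 macrophage or osteoclast markers, TYROBP was at 0 in all 36 libraries, while CD68 (4.75 to 65.0 CPM), CTSK (0.975 to 21.5 CPM) and PTPRC (1.78 to 4.10 CPM) held more than 3 counts in each. Of the 10 mesenchymal markers, COL5A2 (up to 13.8 CPM) and COL1A1 (1.83 to 6.68 CPM) held more than 3 counts in each library, ALPL reached 8.66 CPM in 22Rv1, and POSTN was at or under 0.275 CPM. The sum of the 10 without RANKL was 7.34 to 9.89 CPM in DU145 mono-culture and 7.62 to 14.2 CPM with MG63, and 24.7 to 27.8 CPM and 27.8 to 28.5 CPM in 22Rv1. In C4-2 it was 9.86 to 10.5 CPM and 9.33 to 13.4 CPM, and in C4-2B 9.28 to 9.49 CPM and 9.84 to 10.1 CPM. COL5A2 rose with MG63 in DU145 (1.08 ± 0.24, edgeR adjusted p = 0.00413, but 0.41 ± 0.23 and adjusted p = 0.328 without replicate 2), while RUNX2 fell (-1.11 ± 0.34, adjusted p = 0.0233, and -1.25 ± 0.47 and adjusted p = 0.0852 without it). The part of such RNA in the results was not tested. Replicate 2 of DU145 with MG63 stood apart from replicate 1, with a chi-square per degree of freedom of 228 over genes. All other pairs of replicates had 3.25 to 7.93. DU145 results with MG63 that changed without replicate 2 are also given without it. Such fits leave 1 library in that group, so their SE, p-values and calls take the spread from the other groups. They do not measure the spread of this co-culture. The same holds for any group of 2 from which 1 library is left out.

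MT2A, the most widely used metallothionein of human cells, was the highest member in every line and MT2A, MT1X and MT1F had more than 3 counts in all 36 libraries. In mono-culture MT2A was 5.29-fold higher in DU145 than in C4-2 without RANKL and 10.3-fold higher with RANKL. The remaining members were on or off by line: MT1E was high in DU145 and 22Rv1, MT1A in DU145, and MT1G in 22Rv1. C4-2 and C4-2B held little beyond MT2A, MT1X and a trace of MT1F.

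**Figure D1:**
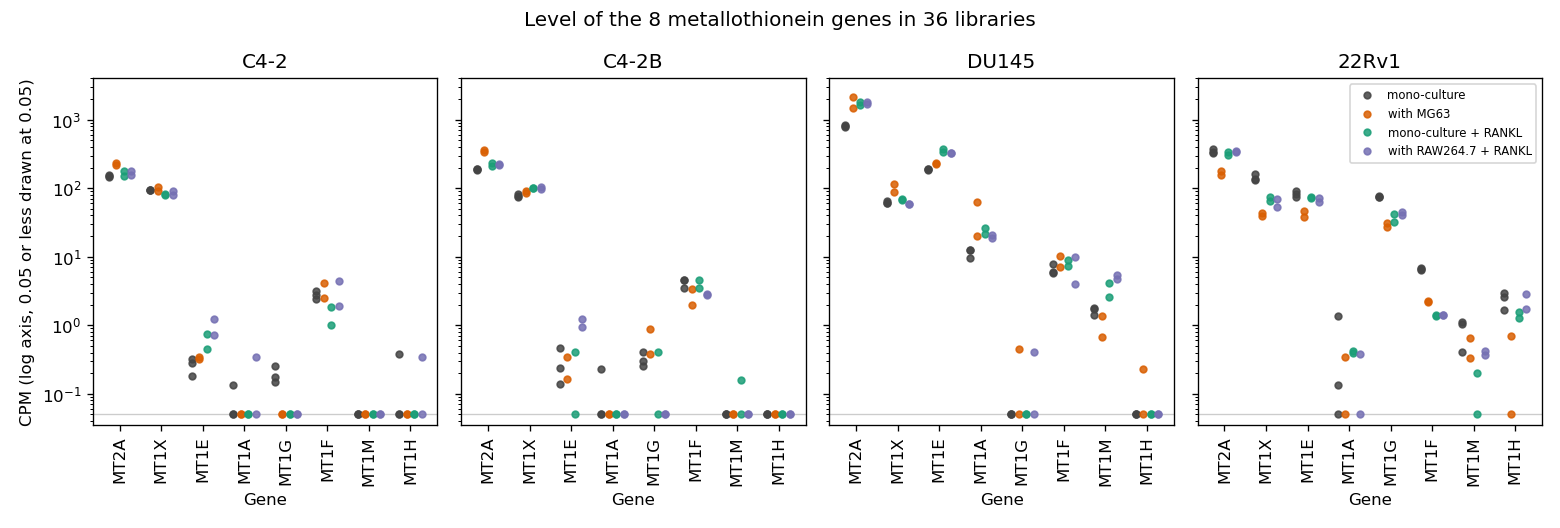
Level of each metallothionein gene (x axis) in CPM on a log axis, 1 point per library coloured by culture, with a panel per cell line and values of 0.05 CPM or less drawn at 0.05. MT2A and MT1X are present everywhere, MT1E in DU145 and 22Rv1, MT1A in DU145 and MT1G in 22Rv1.

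In the mono-cultures without RANKL, MT2A measured 149, 156 and 147 CPM in C4-2 and 186, 192 and 191 CPM in C4-2B. It measured 369, 323 and 339 CPM in 22Rv1 and 818, 842 and 778 CPM in DU145. The 4 lines did not overlap. Each step of the order C4-2, C4-2B, 22Rv1, DU145 passed the edgeR quasi-likelihood test, with a log2 difference of 0.38 ± 0.10 (SE; adjusted p = 0.017), 0.76 ± 0.10 (adjusted p = 3.8e-06) and 1.26 ± 0.10 (adjusted p = 6.4e-09). The first step lost its call in several fits that left out 1 library, at 0.36 (adjusted p = 0.0684) without replicate 2 of C4-2B, 0.37 (0.0647) without replicate 1 of C4-2 and 0.37 (0.064) without replicate 3 of C4-2.

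MT1X ran in another order. It measured 64.9, 59.9 and 61.6 CPM in DU145, 82.7, 73.8 and 78.1 CPM in C4-2B, 95.3, 94.5 and 92.7 CPM in C4-2, and 161, 134 and 131 CPM in 22Rv1. DU145, the line highest in MT2A, was lowest in MT1X. C4-2B and C4-2 differed by -0.22 ± 0.09 on the log2 scale, which did not pass the test (edgeR adjusted p = 0.128), while 22Rv1 exceeded C4-2 by 0.55 ± 0.09 (adjusted p = 4.8e-05) and DU145 lay 0.41 below C4-2B (log2 difference -0.41 ± 0.09, adjusted p = 6.3e-04). With RANKL in the medium the order was not the same, since 22Rv1 then lay below C4-2 by -0.29 ± 0.10 (adjusted p = 0.0196), and 22Rv1 and DU145 differed by 0.03 ± 0.10 (adjusted p = 0.827).

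MT1E measured 194, 192 and 182 CPM in DU145 and 91.3, 75.4 and 81.2 CPM in 22Rv1. In C4-2 and C4-2B it lay between 0.138 and 0.464 CPM in mono-culture without RANKL, at most 15.3 counts. DU145 exceeded 22Rv1 by 1.21 ± 0.11 on the log2 scale (edgeR adjusted p = 3.5e-08).

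MT1A measured 12.3, 12.3 and 9.58 CPM in DU145 and at most 1.38 CPM in any library of the other 3 lines. More than 3 counts of MT1A were found in 2 of 9 C4-2 libraries, 1 of 9 of C4-2B and 6 of 9 of 22Rv1. These were 4.12 and 4.31 counts in C4-2 and 8.52 in C4-2B. In 22Rv1 they were 4.12 to 4.35, apart from replicate 1 of the mono-culture without RANKL (34.7). The values from 4.12 to 4.35 are the lowest nonzero ones of the gene and show little more than a trace. MT1G measured 76.2, 73.2 and 74.9 CPM in 22Rv1, 0.150 to 0.252 CPM in C4-2 and 0.255 to 0.410 CPM in C4-2B. It was at 0 in the 3 DU145 mono-cultures. Set against 3 counts per library there, MT1G was 728-fold higher in the lowest 22Rv1 library than in DU145. The lowest nonzero MT1G value in any library was 4.17 counts, above those 3, so this is not a strict lower bound.

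The other 3 members were low. MT1F measured 6.01, 7.85 and 5.75 CPM in DU145 and 6.39, 6.57 and 6.83 CPM in 22Rv1, which overlapped (log2 difference 0.00 ± 0.20, edgeR adjusted p = 0.999). It measured 2.81, 2.40 and 3.22 CPM in C4-2 and 3.54, 4.52 and 4.62 CPM in C4-2B. With RANKL MT1F was at 7.24 and 9.10 CPM in DU145 and 1.36 and 1.39 CPM in 22Rv1, a log2 difference of 2.60 ± 0.47 (adjusted p = 1.5e-04). With RANKL 22Rv1 lay below C4-2B, at 4.65 and 3.48 CPM (-1.67 ± 0.50, edgeR adjusted p = 0.00866), the reverse of the order without RANKL. The order without RANKL lost its call without replicate 1 of C4-2B (0.42, edgeR adjusted p = 0.110) or replicate 3 of 22Rv1 (0.52, adjusted p = 0.0612). MT1M reached at most 5.44 CPM in DU145 and 1.1 CPM in 22Rv1, and no library of C4-2 or C4-2B held more than 3 counts of it. MT1H reached 2.93 CPM in 22Rv1 and 0.386 CPM elsewhere.

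Between lines, 5 of the 8 members were called at an adjusted p under 0.05 in 22Rv1 against C4-2, where 72.0% of 13437 genes were, and 5 against C4-2B (72.6%). In DU145 there were 6 against C4-2 (78.3%), 6 against C4-2B (79.0%) and 5 against 22Rv1 (79.6%). C4-2B differed from C4-2 in 1 member, MT2A (13.6%). Since most genes differed between these lines and 3 members passed the minimum only where they were high, the counts carry no weight beyond the values. Among the libraries with RANKL, MT1F was a further such member. With RANKL in the medium the counts were 5 in 22Rv1 against C4-2 (71.5% of 11525 genes), 6 against C4-2B (71.6%) and 1 in C4-2B against C4-2 (6.5%), and in DU145 5 against C4-2 (79.1%), 5 against C4-2B (78.9%) and 5 against 22Rv1 (79.1%).

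Of the 12 other metallothionein genes and pseudogenes in the table, MT1L, a transcribed pseudogene lying between MT2A and MT1E at 56617476 to 56618818, was at 81.8, 87.2 and 84.2 CPM in DU145 mono-culture. It did not pass 2.55 CPM in any library of the other lines. MT3, the brain form, reached 5.25 CPM, MT1JP 5.04 CPM, MT1DP 4.22 CPM and MT1P3 3.67 CPM at most. MT1XP1 reached 2.60 CPM, MT2P1 2.27 CPM, MT1P1 1.66 CPM, MT1CP 0.909 CPM and MT1B 0.471 CPM, while MT4 and MT1HL1 were at 0 in every library.

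Levels of different genes can be compared only per length, for which TPM, counts per annotated length scaled to the library, were used. The deposited values, however, appear to be scaled to length already, as told in the processing section. If so, TPM divides by length a second time and gives short transcripts too much weight. Summed over the 8 members the mean was 548 TPM in C4-2, 594 TPM in C4-2B, 1335 TPM in 22Rv1 and 2296 TPM in DU145 mono-cultures. MT2A made up 60.8%, 69.7%, 51.9% and 76.6% of that sum. MT1X made up 38.1% in C4-2 but 6.08% in DU145, where MT1E took 15.5%. In 22Rv1 the sum was spread over MT2A, MT1X (23.1%), MT1G (13.7%) and MT1E (9.87%). Without the division by length, MT2A made up 60.6% in C4-2, 69.5% in C4-2B, 52.6% in 22Rv1 and 75.0% in DU145. MT1E was then 17.5% in DU145, and in 22Rv1 MT1E (12.6%) came before MT1G (11.5%).

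**Figure D2:**
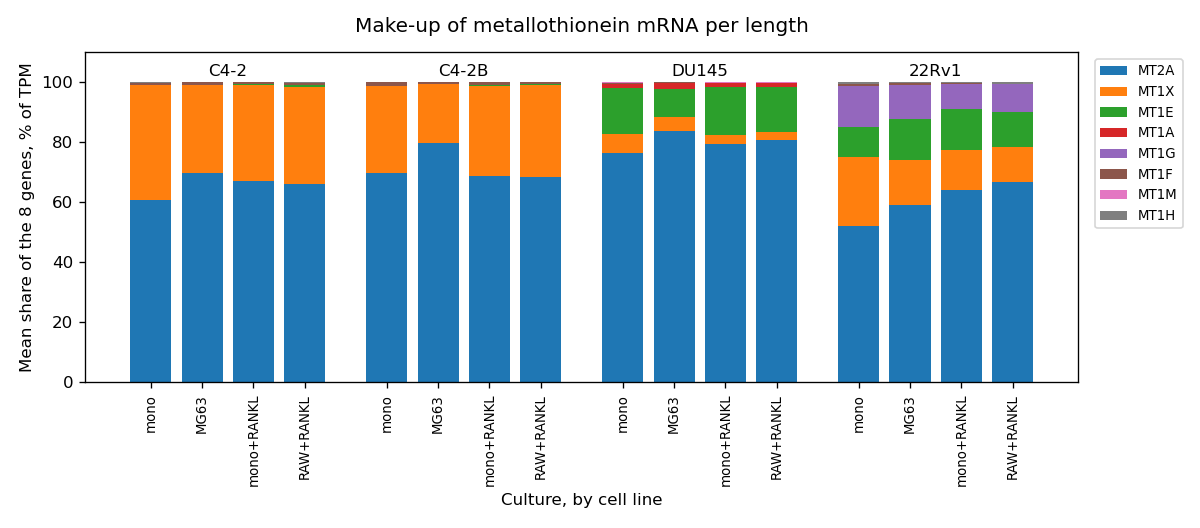
Mean share of each member in the summed TPM of the 8 genes (y axis, percent) in the 16 groups of cell line and culture (x axis). The values appear scaled to length before TPM was taken, so short transcripts may have too much weight. MT2A and MT1X fill the bars of C4-2 and C4-2B, MT1E is added in DU145, and MT1E and MT1G in 22Rv1.

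The comparison with MG63 asked which genes of PCa cells respond to OB-like cells. Against mono-culture without RANKL, MT2A rose in C4-2, C4-2B and DU145 and fell in 22Rv1. In 22Rv1 MT1X, MT1E, MT1G and MT1F fell along with it. MT2A in DU145 and MT1G and MT1F in 22Rv1 were not called against mono-culture with RANKL. In C4-2 and C4-2B MT2A was the only member called. RNA was measured in bulk, so fewer cells of a kind and less RNA per cell cannot be told apart.

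With MG63, MT2A was at 229 and 215 CPM in C4-2 (147 to 156 in mono-culture), a log2 change of 0.67 ± 0.11 (edgeR adjusted p = 9.6e-04). In C4-2B it was at 362 and 332 CPM against 186 to 192 CPM, a change of 0.93 ± 0.11 (adjusted p = 1.0e-04). In 22Rv1 it was at 157 and 179.8 CPM against 323 to 369 CPM, a change of -0.92 ± 0.12 (adjusted p = 4.7e-05). The groups did not overlap in any of these lines.

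In DU145 MT2A was at 1481 and 2113 CPM against 778 to 842 CPM, a change of 1.21 ± 0.11 (edgeR adjusted p = 5.7e-06). Without replicate 2, the library that stood apart, the change was 0.94, and without replicate 1 it was 1.44. Each of these fits leaves 1 co-culture library, so only the size of the change is given. Both libraries exceeded all 3 mono-cultures.

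MT1X was at 44.2 and 39.7 CPM in 22Rv1 with MG63, a fall from 131 to 161 CPM of -1.65 ± 0.11 on the log2 scale (edgeR adjusted p = 1.5e-07). In DU145 it was at 87.3 and 115 CPM against 59.9 to 64.9 CPM. That change was 0.77 ± 0.10 (edgeR adjusted p = 1.5e-04), or 0.57 without replicate 2. In C4-2 it measured 105 and 90.3 CPM, overlapping the mono-cultures (0.16 ± 0.10, adjusted p = 0.379), and in C4-2B 90.9 and 86.2 CPM, above them but short of the threshold (0.24 ± 0.10, adjusted p = 0.183).

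MT1E in 22Rv1 went from 75.4 to 91.3 CPM down to 38.2 and 47.0 CPM (log2 change -0.85 ± 0.13, edgeR adjusted p = 3.2e-04). MT1G fell to 31.5 and 26.7 CPM (-1.25 ± 0.16, adjusted p = 2.0e-04) and MT1F to 2.23 and 2.20 CPM (-1.45 ± 0.27, adjusted p = 0.00144). None of the 22Rv1 co-cultures reached the lowest mono-culture in any of these genes. MT1H, at 1.70 to 2.93 CPM in 22Rv1 mono-culture, was at 0 and 0.696 CPM with MG63 and was not tested.

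In DU145, MT1E measured 224 and 230.0 CPM with MG63 (0.33 ± 0.12, edgeR adjusted p = 0.0493), a call that was lost without replicate 2 (0.32 ± 0.11, adjusted p = 0.0572) and in most other fits that left out 1 library, with values of 0.31 to 0.36 throughout. MT1A measured 20.2 CPM in replicate 1 and 61.9 CPM in replicate 2. Its change of 1.90 ± 0.60 (adjusted p = 0.0285) fell to 0.90 ± 0.73 (adjusted p = 0.468) without replicate 2. MT1G also passed the threshold in DU145 (adjusted p = 0.00878), but this rested on 5.84 counts in 1 library, with 0 in the other 4, and it was not taken as detected. The pseudogene MT1L measured 94.8 and 176 CPM (0.75 ± 0.23, adjusted p = 0.0233), and its change was not called without replicate 2 (0.25 ± 0.18, adjusted p = 0.406).

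In counts, 5 of 8 members were called in 22Rv1, all lower, where 20.4% of 13437 genes were called in either direction. In DU145 4 were called, all higher, against 30.5% of genes, and 2 of these (MT1A and MT1E) lost the call without replicate 2. In C4-2 and C4-2B there was 1 each, against 10.1% and 7.41%. The median log2 change over all genes was 0.00 in 22Rv1 and -0.06 in DU145. The difference between lines was itself tested in an interaction F-test with edgeR, which 14.5% of genes passed. MT2A (adjusted p = 4.4e-06), MT1X (1.1e-06), MT1E (0.00251), MT1G (0.00495) and MT1F (0.00577) passed it. For MT1E and MT1G this test also took in lines in which they were near 0, at most 15.3 counts of MT1E in C4-2 and C4-2B and 12.3 counts of MT1G in C4-2, C4-2B and DU145, so their p-values say little about a difference between lines.

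**Figure D3:**
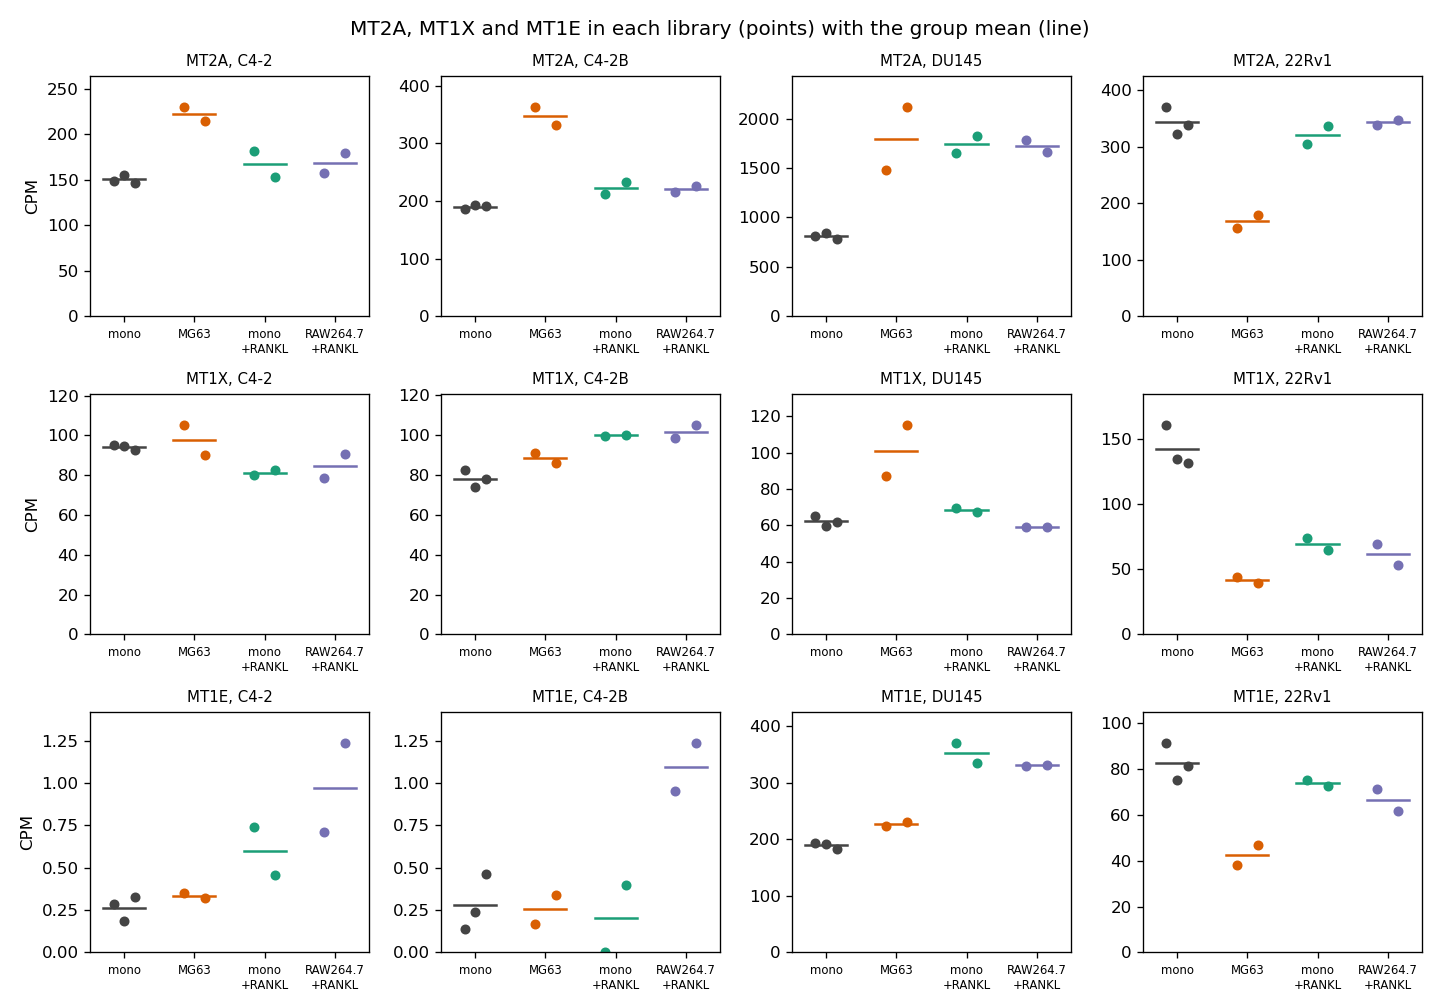
CPM of MT2A, MT1X and MT1E (rows) in each library (points) with the group mean (line), by culture (x axis) and cell line (columns), each panel on its own axis from 0. With MG63 MT2A is above mono-culture in C4-2, C4-2B and DU145 and below it in 22Rv1, and with RANKL it is above mono-culture in DU145.

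The mono-cultures with RANKL are as shallow as the co-cultures and can stand as another control, though they differ from the MG63 co-cultures by RANKL as well. Against them MT2A was still higher with MG63 in C4-2 (0.43 ± 0.13, edgeR adjusted p = 0.026) and C4-2B (0.61 ± 0.12, adjusted p = 0.0022) and lower in 22Rv1 (-0.85 ± 0.13, adjusted p = 2.7e-05). In DU145 MT2A did not differ beyond its error (0.06 ± 0.12, edgeR adjusted p = 0.729). The direction hung on the library, at 0.32 without replicate 1 and -0.25 without replicate 2, each from 1 co-culture library. Of the 4 lines, DU145 was the one in which the control changed the call of MT2A.

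MT1X kept its direction against this control in DU145 (0.57 ± 0.12, edgeR adjusted p = 6.7e-04) and in 22Rv1 (-0.65 ± 0.12, adjusted p = 6.2e-04). In DU145 its change was 0.34 without replicate 2 and 0.78 without replicate 1. In C4-2B it was not called under either control, at 0.24 and -0.21. MT1E was lower with MG63 in 22Rv1 (-0.72 ± 0.14, adjusted p = 8.1e-04) and also in DU145 (-0.62 ± 0.13, adjusted p = 7.1e-04), the reverse of its change against mono-culture without RANKL. MT1G in 22Rv1 was no longer called (-0.29 ± 0.22, adjusted p = 0.451), and MT1F turned from lower to 0.77 ± 0.48 (adjusted p = 0.319). With this control 3 of 8 members were called in 22Rv1 (15.3% of genes), 2 in DU145 (36.5%), 1 in C4-2 (10.3%) and 1 in C4-2B (7.63%). The test between lines was passed by 3 members, MT2A, MT1X and MT1F (36.9% of genes).

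**Figure D4:**
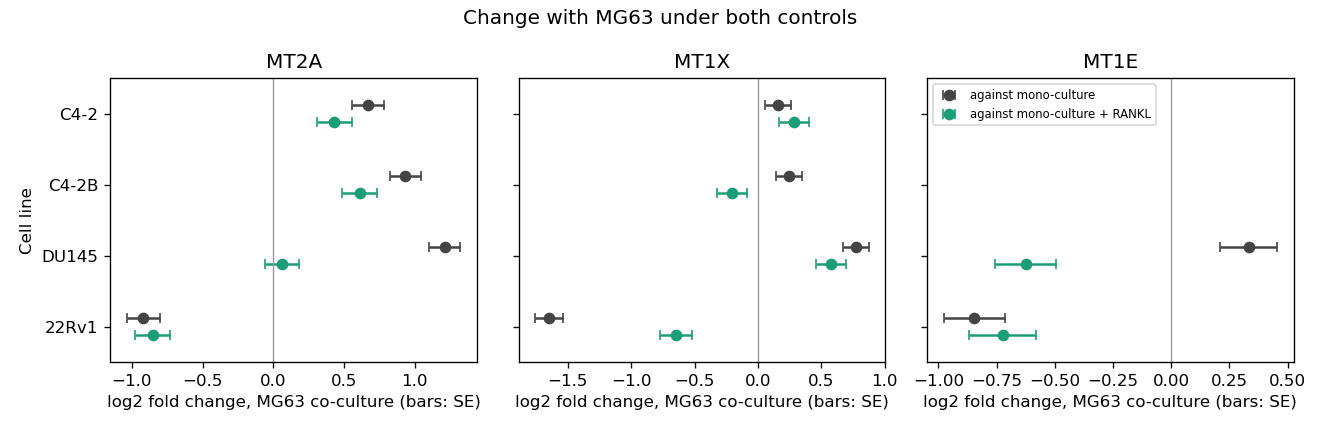
Log2 fold change with MG63 (x axis, bars show SE) of MT2A, MT1X and MT1E in each cell line (y axis), against mono-culture without RANKL and with RANKL. The MT2A points of C4-2, C4-2B and 22Rv1 stay on their side of 0 under both controls, while MT2A in DU145 moves from 1.21 to 0.06 and MT1E in DU145 from 0.33 to -0.62. MT1E is not drawn for C4-2 and C4-2B, where it stayed at or under 0.738 CPM in mono-culture.

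RANKL alone, added to mono-cultures, went with a rise of MT2A and MT1E in DU145 and a fall of MT1X, MT1G and MT1F in 22Rv1. In DU145 MT2A measured 1656 and 1821 CPM (log2 change 1.2 ± 0.11, edgeR adjusted p = 8.6e-09) and MT1E 369 and 334 CPM (1.00 ± 0.12, adjusted p = 3.7e-07). Neither gene overlapped its mono-cultures without RANKL. MT1A measured 21.1 and 26.0 CPM, above all mono-cultures but short of the threshold (1.14 ± 0.53, adjusted p = 0.106). MT1L was at 131 and 142 CPM (0.80 ± 0.22, adjusted p = 0.00708).

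In 22Rv1 with RANKL, MT2A measured 305 and 336 CPM, the former below all 3 mono-cultures without RANKL and the latter among them (-0.07 ± 0.11, edgeR adjusted p = 0.721). MT1X was at 74.0 and 64.7 CPM, a change of -1.01 ± 0.11 (adjusted p = 5.0e-07), and MT1F at 1.36 and 1.39 CPM, a change of -2.23 ± 0.39 (adjusted p = 2.3e-04). MT1G was at 42.4 and 32.6 CPM (-0.97 ± 0.20, adjusted p = 0.00239, or 0.0746 without replicate 2 with RANKL). MT1E measured 75.2 and 72.9 CPM (-0.13 ± 0.13, adjusted p = 0.529).

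In C4-2B MT1X was at 99.5 and 100.3 CPM with RANKL, above the mono-cultures (0.43 ± 0.11, edgeR adjusted p = 0.00626, or 0.0757 without replicate 2 with RANKL). MT2A in C4-2B measured 212 and 233 CPM (0.31 ± 0.11, adjusted p = 0.067). In C4-2 MT2A measured 181 and 153 CPM (0.24 ± 0.11, adjusted p = 0.155) and no member was called by edgeR, although 3 had an unadjusted p under 0.05 and DESeq2 called 1, MT1E at 0.457 and 0.738 CPM. The counts were 2 of 8 members in DU145 (32.5% of 13454 genes), 3 in 22Rv1 (17.7%), 1 in C4-2B (14.4%) and 0 in C4-2 (18.3%). MT2A (interaction adjusted p = 5.8e-06), MT1X (4.5e-07), MT1E (1.2e-04) and MT1F (9.1e-04) differed between lines in their change with RANKL, a test that 32.6% of genes passed and that for MT1E has the same limit.

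RAW264.7 cells added to RANKL moved the family little. MT2A was at 158 and 179 CPM in C4-2 and 216 and 226 CPM in C4-2B. It was at 1786 and 1665 CPM in DU145 and 339 and 347 CPM in 22Rv1. Against mono-culture with RANKL the log2 change of MT2A was 0.01 ± 0.09 in C4-2 and 0.13 ± 0.09 in 22Rv1. No member was called by edgeR in any line, where 0.0174% of 11525 genes were called in C4-2, 0.139% in C4-2B, 0.026% in DU145 and 0.00868% in 22Rv1. At an unadjusted p under 0.05 there was 1 member each in C4-2, C4-2B and DU145 and 0 in 22Rv1, and DESeq2 called 0 in each line. The edgeR test of a difference between lines called 0 members against 0.0347% of genes, with 1 at an unadjusted p under 0.05. DESeq2 called 1, MT1E (edgeR adjusted p = 0.698), which was at 0.954 and 1.23 CPM in C4-2B with RAW264.7 and 0 and 0.401 CPM without.

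The deposited counts also split MT2A between transcripts. The transcript of 786 bases (ENST00000245185) held 14.2% to 31.6% of MT2A counts in the 12 mono-cultures without RANKL (median 21.3%) and 8.37% to 14.7% in the 24 other libraries (median 11.8%). The transcript of 416 bases (ENST00000567300) held 67.1% to 84.2% and 83.0% to 90.6%. In each line the share of the longer one was higher in every mono-culture without RANKL than in any other library. MT1X was counted on 1 transcript of 450 bases for at least 92.4% in all libraries. For MT1E the transcript of 332 bases (ENST00000568293) held 9.69% to 28.0% in the 6 mono-cultures of DU145 and 22Rv1 without RANKL (median 20.03%) and 6.30% to 57.5% in their 12 other libraries (median 44.8%). These ranges overlapped through 1 library of DU145 with MG63, at 6.30%, and 1 of 22Rv1 with MG63, at 22.2%. The latter was still above the 22Rv1 mono-cultures without RANKL, at most 15.5%. In DU145 it went from a mean of 49.3 CPM to 174 CPM with RANKL, most of the rise of MT1E. These shifts move with depth and with the set of libraries, and their part in the changes of MT2A and MT1E was not tested. Among all genes under 600 bases the median log2 change with MG63 was 0.00 in DU145, 0.02 in C4-2B, 0.08 in C4-2 and 0.15 in 22Rv1.

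**Figure D5:**
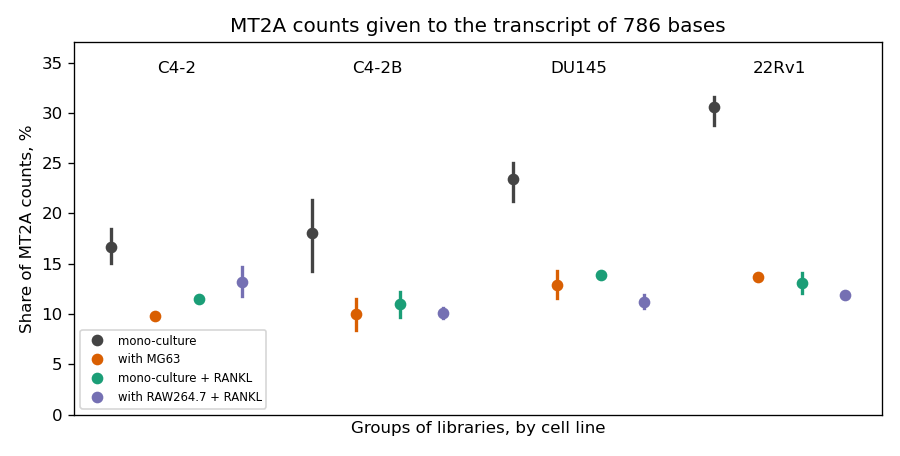
Share of MT2A counts, in percent (y axis), given to the transcript of 786 bases in each group of libraries (x axis, by cell line and culture), with the mean as a point and the lowest to highest library as a line. In each line the mono-cultures without RANKL are highest, from 14.2% to 31.6%.

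Genes that work with metallothioneins were counted from lists of zinc, copper, oxidant, glucocorticoid and heat shock genes. MTF1, the zinc sensor that drives the family, passed the test in none of the MG63, RANKL or RAW264.7 comparisons. Its mean in mono-culture was 13.1 CPM in C4-2, 13.5 in C4-2B, 10.5 in 22Rv1 and 8.57 in DU145, and DU145 was lower than C4-2 by -0.64 ± 0.15 on the log2 scale (edgeR adjusted p = 8.8e-04). SLC30A1, a zinc exporter that is also a target of MTF1, fell with MG63 in DU145 (-0.52 ± 0.11, adjusted p = 0.00357, but -0.32 ± 0.11 and adjusted p = 0.0599 without replicate 2) and fell with RANKL in DU145 (-0.65 ± 0.09, adjusted p = 8.3e-06) and 22Rv1 (-0.67 ± 0.10, adjusted p = 2.3e-05). With RANKL in DU145, SLC30A1 was thus lower where MT2A was higher. SLC30A1 with MG63, set against mono-culture with RANKL, turned to 0.17 ± 0.11 in DU145 (adjusted p = 0.245) and was higher in 22Rv1 (0.44 ± 0.11, adjusted p = 0.0075).

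Of the 11 zinc sensor and exporter genes 8 were tested with MG63, and 0 passed edgeR in C4-2, C4-2B and 22Rv1 while 2 were lower in DU145 and 0 were without replicate 2. Of the 14 zinc importers 11 were tested, and 3 were higher and 2 lower in DU145, 1 higher and 1 lower in 22Rv1, 1 lower in C4-2B and 0 were called in C4-2. Without replicate 2 the count in DU145 was 1 higher and 1 lower. The importer SLC39A10 was among the lower ones in C4-2B (-0.45 ± 0.11, edgeR adjusted p = 0.0229), DU145 (-0.55 ± 0.12, adjusted p = 0.00294; 0.0414 without replicate 2) and 22Rv1 (-0.43 ± 0.11, adjusted p = 0.0121). Against mono-culture with RANKL, SLC39A10 was not called in any line, and 7 importers were higher and 0 lower in DU145 (36.5% of all genes called; 6 and 0 without replicate 2), 3 and 0 in C4-2B (7.63%), 1 and 0 in C4-2 (10.3%) and 0 and 2 in 22Rv1 (15.3%). The exporters then had 1 lower in C4-2 and 1 higher in 22Rv1, and in DU145 0 called, or 1 higher without replicate 2. With RANKL alone, 5 importers and 3 exporters were lower and 0 higher in DU145, where 32.5% of genes were called. In C4-2 (18.3%) 3 importers were lower and 1 exporter higher, in C4-2B (14.4%) 2 importers were lower, and in 22Rv1 (17.7%) 2 importers were higher and 1 lower, with 1 exporter lower.

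The counts of these lists stand beside the 30.5% of all genes called with MG63 in DU145, 20.4% in 22Rv1, 10.1% in C4-2 and 7.41% in C4-2B, or the shares given above for the control with RANKL. Of 7 copper genes tested, 3 were higher in DU145, 3 in 22Rv1, 1 in C4-2B and 1 in C4-2, where 1 was lower. In DU145 the 3 became 1 without replicate 2. ATOX1, a copper chaperone, rose with MG63 in every line against mono-culture without RANKL, from 0.59 ± 0.11 in C4-2B (edgeR adjusted p = 0.00442) to 0.82 ± 0.11 in DU145 (adjusted p = 1.8e-04; 0.51 ± 0.08 without replicate 2). Against mono-culture with RANKL ATOX1 was called in DU145 alone (0.57 ± 0.13, adjusted p = 0.00113, but 0.21 ± 0.10 and adjusted p = 0.118 without replicate 2), and the copper counts were 0 in C4-2 and C4-2B, 2 higher and 1 lower in DU145 (0 and 1 without replicate 2) and 2 higher in 22Rv1. Of 6 heat shock genes known to respond to metals, 2 were higher in C4-2, 2 in C4-2B, 3 in DU145 and 4 in 22Rv1, and 0 were lower in any line. Without replicate 2 of DU145 HSPA1A lost its call there and HSPA1B gained one. Against mono-culture with RANKL the counts were 1 higher in C4-2, 1 lower in C4-2B, 2 higher and 2 lower in DU145 (1 and 3 without replicate 2) and 4 higher in 22Rv1. In 22Rv1 HSPA1B rose by 0.98 ± 0.10 (adjusted p = 6.5e-06), with the caveat that HSPA1A and HSPA1B are near-identical copies. The median log2 change of these 6 was 0.62 in 22Rv1, 0.33 in DU145, 0.31 in C4-2B and 0.28 in C4-2, against 0.00, -0.06, 0.00 and -0.01 over all genes. It was, with RANKL in the control, 0.34 in 22Rv1, 0.15 in DU145 (-0.09 without replicate 2), 0.10 in C4-2B and 0.17 in C4-2.

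Among 8 glutathione and oxidant defence genes, the cystine importer SLC7A11 fell with MG63 in 22Rv1 by 2.84 on the log2 scale (-2.84 ± 0.15, edgeR adjusted p = 1.2e-08), and also in DU145 (-1.0 ± 0.13, adjusted p = 1.0e-04) and C4-2 (-0.68 ± 0.11, adjusted p = 9.2e-04). HMOX1, the haem-degrading enzyme, rose in C4-2 (0.76 ± 0.08, adjusted p = 1.1e-05). In all, 3 of the 8 were higher and 3 lower in 22Rv1, and 2 higher and 4 lower in DU145 (1 and 5 without replicate 2), with 1 and 1 in C4-2 and 1 and 0 in C4-2B. The counts against mono-culture with RANKL were 2 and 1 in 22Rv1, 0 and 1 in DU145, and 1 and 0 in C4-2 and C4-2B. The glucocorticoid list of 8 genes held the receptor NR3C1 and 7 genes known to be induced through it. Of these FKBP5, a standard marker of that response, fell in C4-2 (-0.54 ± 0.11, adjusted p = 0.00536), C4-2B (-0.46 ± 0.11, adjusted p = 0.0166) and 22Rv1 (-0.62 ± 0.11, adjusted p = 9.5e-04). The list had 0 higher and 1 lower member in C4-2 and DU145 (0 and 0 in DU145 without replicate 2), 0 and 2 in C4-2B, and 1 and 3 in 22Rv1. Against mono-culture with RANKL, FKBP5, SLC7A11 and HMOX1 were not called in C4-2, and SLC7A11 was higher in C4-2B (0.93 ± 0.12, adjusted p = 1.4e-05). The glucocorticoid list then had 1 higher and 0 lower in C4-2, 0 and 2 in C4-2B, 2 and 1 in DU145 (2 and 0 without replicate 2) and 1 and 4 in 22Rv1, where NR3C1 was among the lower (-1.63 ± 0.29, adjusted p = 2.8e-04).

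Across the 16 group means, on the log2(CPM + 1) scale, MT2A ran closest to MT1A (Pearson's r = 0.954) and MT1E (0.802) among the members tested, and apart from MT1X (-0.147) and MT1G (-0.149). These are descriptions in which the 4 lines, 4 means each, set most of the pattern. Outside the family the genes most like the summed members were CHN1 (r = 0.974), G0S2 (0.964), UPP1 (0.963), SUV39H1 (0.963) and PWP2 (0.960). For MT2A they were ZFP36L1 (0.969), DYNC1H1 (0.962) and MDFI (0.961), and for MT1E POGLUT3, PM20D2 and ZNF22 (0.995 each). With 0.1 in place of 1 added to CPM, the 3 for MT1E became SPTBN1, ZNF860 and ALDH7A1, ZFP36L1 alone stayed for MT2A, and ZFP36L1 and CDKN2A took the place of G0S2 and SUV39H1. No gene came near MT1X, whose closest were DKC1 (0.752), RPUSD4 (0.732) and SMG1P4 (0.723).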

How the data were processed

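Poly(A) RNA of 4 PCa lines was sequenced in a strand-specific way. The authors deposited values labelled estimated counts per transcript, quantified with kallisto 0.46.0 and with no normalization across samples. The paper states that the data were then summarized with tximport and that scaled TPM counts were used. The deposited values appear to be scaled to transcript length in this way. Their lowest nonzero value differed with length, at 4.12 for MT1A (396 bases) and 1.95 for MT1M (829 bases). Counts and CPM here refer to these values and may not be numbers of reads. The processing notes name hg19, while positions and coding sequences here are from GENCODE 29 (GRCh38), which held 95.4% of the 159837 transcripts. Lines of the 161149 that repeated a transcript were used once, and counts were summed by symbol. Transcripts without a symbol held at most 0.764% of a library and stayed in its total.

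Counts were rounded and tested with edgeR 4.0.16 in R 4.3.3 (TMM, quasi-likelihood, 1 mean per line and culture, Benjamini-Hochberg over all genes, called at adjusted p under 0.05). Genes with 100 counts in at least 1 library were kept: 13437 without RANKL (20 libraries, MG63 and lines), 13454 (36, RANKL and MG63 against it) and 11525 (16, RAW264.7). A call was taken as detected where every library of at least 1 of both groups held more than 3 counts, a rule set after seeing the values. All 8 members were named, with at most 2 called genes per list and comparison and MTF1 and SLC30A1. The named genes, members and lists were chosen with earlier results of these data known. DESeq2 1.42.0, scaling, filters and left-out libraries were tried as alternatives. On simulated counts for DU145 with MG63 (13311 genes), 55 of 67 genes changed by 2-fold and 42 of 67 changed by 1.5-fold were recovered. With 65 of 66 changed by 4-fold also recovered, there were 18 false calls in all. Both simulated co-cultures were drawn around 1 mean, while the real replicates stood apart, so this recovery need not hold for that group. Equal replicate numbers did not pair the samples (mean correlation of deviations from -0.0327 to 0.0185). Python 3.11.15 was used for tables. Some sequences and marker genes are not reported here.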

Additional observations from a re-analysis of the deposited data

Results flagged for a closer look

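The change with MG63 differed between the 4 lines by an interaction F-test (edgeR, adjusted over all genes) for MT1E (adjusted p = 0.00251), MT1F (0.00577), MT1G (0.00495), MT1X (1.1e-06) and MT2A (4.4e-06). MT1E was near 0 in C4-2 and C4-2B, and MT1G in all lines but 22Rv1, so their p-values here say little about a difference between lines, and the same holds for MT1E with RANKL. Against mono-culture without RANKL, MT2A was higher with MG63 in both libraries of C4-2, C4-2B and DU145 and lower in both of 22Rv1, while against mono-culture with RANKL 1 library of DU145 was higher and 1 lower. The change with RANKL differed between lines in the same test for MT1E (adjusted p = 1.2e-04), MT1F (9.1e-04), MT1X (4.5e-07) and MT2A (5.8e-06). MT1X was lower in both 22Rv1 libraries with RANKL and higher in both of C4-2B.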

How the results depend on the processing

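Across the 45 member changes called, 1248 values under alternative settings included 1199 with the same direction and call, 42 that lost the call and 7 that changed sign. With the mono-cultures with RANKL used to compare lines, 22Rv1 against C4-2 became -0.063 for MT1F and -0.29 for MT1X, 22Rv1 against C4-2B became -1.67 for MT1F and -0.64 for MT1X, and DU145 against 22Rv1 became 0.026 for MT1X. With them as the control for MG63, MT1F in 22Rv1 became 0.77 and MT1E in DU145 -0.62. The cause was not tested. Under that control, calls of members higher with MG63 over the 4 lines went from 6 to 3, and members that differed between lines from 5 to 3. A rule of more than 2-fold at an unadjusted p under 0.05 gave 2 higher with MG63 and 2 higher with RAW264.7 (0 by the main rule). DESeq2 gave 5 members higher with RANKL in place of 3, and 1 that differed between lines with RAW264.7 in place of 0.

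Leaving out 1 library at a time gave 4 to 8 members higher and 5 to 6 lower with MG63, 2 to 4 higher and 2 to 3 lower with RANKL, and 27 to 30 calls between lines in place of 28. It gave 5 in each fit for MG63 and 4 for RANKL in the test between lines, and 0 for RAW264.7. Against the control with RANKL it gave 2 to 7 higher and 4 lower. MT1A in DU145 with MG63 was also lost without any one of the DU145 mono-cultures (adjusted p 0.067 to 0.0873). With the replicate number as a block, 4 members were higher with MG63 in place of 6, and the numbers did not pair the samples. Scaling to library size moved the median of all genes to -0.13 in DU145 and -0.12 in C4-2 with MG63. In DU145 with MG63, 4092 genes were called, 7371 without replicate 1 and 2002 without replicate 2. Counts at or under 3 per library limit MT1A, MT1G, MT1H and MT1M outside the lines in which they were high.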
